A study of Mus musculus with 146 samples.

Results

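The genes described are 6 that encode RNA-binding proteins of the germ line, Dazl, Dnd1, Nanos3, Pum2, Elavl2 and Lin28b, chosen by name from the 52605 gene symbols measured in each cell. Their levels were read in single germ cells of newborn mouse ovaries (strain C57/BL6J, age D0.5, no treatment). The 5 ovaries came from pups of the same litter, the cells were picked by mouth pipette, and per the study's methods amplified cDNA was tested by quantitative PCR for Vasa (Ddx4) and Foxl2, and samples with Foxl2 were dropped. Each of the 146 libraries was made from 1 cell by Smart-seq2 with ERCC spike-in RNA. Since nothing assigns a cell to an animal, all cells count as 1 sample, so differences between groups of cells are given without a test and the error of a mean cannot be given. Cells with Ddx4, the germ cell helicase, below 1 TPM (a level per transcript length and per library depth) were left out. This removed 1 cell, at 0 TPM, and in the kept cells Ddx4 ranged from 7.49 to 542 TPM with a median of 185.

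RNA-binding proteins act on mRNA after transcription, by raising or lowering its translation, its lifetime or its access to microRNAs. In the germ line DAZL binds 3' untranslated regions (3' UTRs) and promotes translation of meiotic messages, while NANOS proteins, with Pumilio partners such as PUM2, bring the CCR4-NOT deadenylase to their targets, and DND1 works with NANOS proteins and shields messages from microRNAs. ELAVL2 belongs to the Hu family that binds AU-rich sequence and is made in neurons and oocytes. LIN28B binds precursors of let-7 microRNAs and stops their maturation. Nanos3 and Dnd1 are best known from primordial germ cells, which both need to survive, and Dazl from the entry into meiosis.

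No pair of libraries had identical files, but 7 pairs were far more alike than any other. Over 14115 coding genes their log2(TPM + 1) values correlated at 0.989 to 0.996, beside 0.844 for the next most alike pair and a median of 0.65 over all pairs. Their read counts differed by a chi-square of 1.91 to 5.17 per degree of freedom, beside at least 220 in every other pair compared (1 in 100 of them). The labels do not say whether such libraries share a cell. Each pair was averaged and counted as 1 cell, which left 86 in place of 93 cells in cluster 2, where all 14 of these libraries lay. The depth of the kept cells lay between 4103140 and 17440700 reads assigned to genes, with a median of 9509200. All 8 germ cell markers together held 1609 to 8013 TPM in a kept cell. The 9 pregranulosa markers together had a median of 0.586 TPM and a highest value of 64.2 TPM, and the 8 stroma markers a median of 1.07 TPM and a highest value of 879 TPM. The 10 blood or endothelial markers had a median of 61.8 TPM and reached 324988 TPM in 1 cell of cluster 1, and their part in the results below was not tested. Foxl2 was at 0 in every cell of cluster 3 and Hsd17b1 in every cell of cluster 1, and no other listed marker was at 0 throughout a cluster.

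The 3' UTRs of Elavl2, Lin28b and Pum2 hold the letters of an element that Pumilio proteins bind, and these stretches are shown because the deposited values also bear on which transcripts carry them. The element bound by Pumilio proteins is searched here as TGTANATA on the sense strand, in the 3' UTR of the longest coding transcript of GENCODE M21 (build GRCm38, the same as mm10). Of 13876 detected coding genes, 27.3% hold it. Elavl2 holds 3, Lin28b 2 and Pum2 itself 2, whereas the 3' UTRs of Dazl (1852 bases) and Nanos3 (172 bases) hold none and that of Dnd1 is not reported here. The share was higher among longer 3' UTRs. Among genes with a 3' UTR within 1.5-fold of that of Elavl2 (2477 bases) 40.5% hold the element, and the share is 54.4% for the length of Lin28b (4445 bases), 43.4% for that of Pum2 (2841 bases), 33.9% for that of Dazl and 5.51% for that of Nanos3. The sites follow in mRNA sense, 30 bases each, with the element in capitals.
Elavl2, chr4:91251942-91251971, minus strand: gctttgtgtgaTGTAAATAagaccttgtgt
Elavl2, chr4:91251734-91251763, minus strand: ctaattctgtcTGTAGATAgtctagcttca
Elavl2, chr4:91251069-91251098, minus strand: aataaaatacaTGTATATAtttaaaaaaaa
Lin28b, chr10:45380688-45380717, minus strand: gtgtgtgtgtaTGTAGATAaaagcacatac
Lin28b, chr10:45380199-45380228, minus strand: ggggagggtaaTGTATATAgtaacatggtc
Pum2, chr12:8750154-8750183, plus strand: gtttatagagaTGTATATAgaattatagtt
Pum2, chr12:8750407-8750436, plus strand: atgtacagaatTGTATATActtataattgt

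The other regulator of interest is let-7, whose maturation LIN28B blocks and whose members in turn pair with the 3' UTR of Lin28b. In the RefSeq table for GRCm38.p6, 11 mature mouse microRNAs from 13 loci share the let-7 seed (bases 2 to 8, in capitals), of which 3 are shown, with 1 locus each. MicroRNAs were not measured in these libraries.
let-7a-5p, chr13:48538239-48538260, minus strand: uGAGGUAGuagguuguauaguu
let-7g-5p, chr9:106178846-106178867, plus strand: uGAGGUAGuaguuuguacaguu
miR-98-5p, chrX:151913229-151913250, plus strand: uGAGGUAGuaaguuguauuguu
The letters that pair with this seed, CTACCTC, occur 4 times in the 3' UTR of Lin28b and in none of those of Dazl, Nanos3, Pum2 and Elavl2. They occur in 10.44% of the 13876 detected coding genes, and in 22.9% of those with a 3' UTR within 1.5-fold of the length of that of Lin28b. A match is a description of the sequence and does not show that it is bound. The Lin28b matches follow in mRNA sense, in capitals.
Lin28b, chr10:45381011-45381040, minus strand: gggcgggaagtCTACCTCatgcaagcacag
Lin28b, chr10:45378637-45378666, minus strand: cttgttagtaaCTACCTCtgagtttgacat
Lin28b, chr10:45378465-45378494, minus strand: acagcacatggCTACCTCccagctaccaca
Lin28b, chr10:45377049-45377078, minus strand: gatggcaccgaCTACCTCttcaatcacttg

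Across the kept cells the genes spanned medians from 477 TPM to 0, with Dazl far above the rest. Dazl (chr17:50279395-50293636, minus strand) had 93.3 TPM in its lowest cell, a median of 477 and a highest value of 1403, and no cell lacked it. Elavl2 (chr4:91250763-91400785, minus strand) ranged from 0 to 547 TPM with a median of 111.6. Pum2 (chr12:8674134-8752581, plus strand) ranged from 0 to 136.01 TPM with a median of 19.8. These 3 genes were present in nearly all cells, where present means at least 0.1 TPM: Elavl2 in all but 7 cells (94.9%, exact Clopper-Pearson 95% interval 89.8 to 97.9%) and Pum2 in all but 19 (86.2%, 79.3 to 91.5%).

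Lin28b (chr10:45376620-45486395, minus strand) and Dnd1 (chr18:36763671-36766214, minus strand) stood lower and were absent from many cells. Lin28b ranged from 0 to 86.8 TPM with a median of 2.60 and was missing in 41 cells (present in 70.3%, 61.9 to 77.8%). Dnd1 ranged from 0 to 49.9 TPM with a median of 2.82 and was present in 78 cells (56.5%, 47.8 to 64.9%). Nanos3 (chr8:84173731-84185217, minus strand) was close to silent, listed at 0 TPM in all but 5 cells (3.62%, 1.19 to 8.25%). Intervals cover counting error only.

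The order by median was Dazl, Elavl2, Pum2, Dnd1, Lin28b and Nanos3. It held within most cells for the upper genes: Dazl exceeded Elavl2 in 94.2% of kept cells, Elavl2 exceeded Pum2 in 86.96%, and Pum2 exceeded Dnd1 in 76.1%. Dnd1 exceeded Lin28b in 54 cells (39.1%) although its median was higher, so that these neighbours could not be ordered beyond their spread. With the 7 pairs of like libraries counted separately their medians changed order, at 2.73 TPM for Dnd1 and 3.10 for Lin28b. Lin28b exceeded Nanos3 in 74.6% of cells, and Dnd1 was at exactly 0 in 53 cells. Of the 6 genes, a cell had 5 in 54 cells, 4 in 52, 3 in 21, 2 in 6 and 1 in 3, and all 6 in 2 cells.

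**Figure D1:**
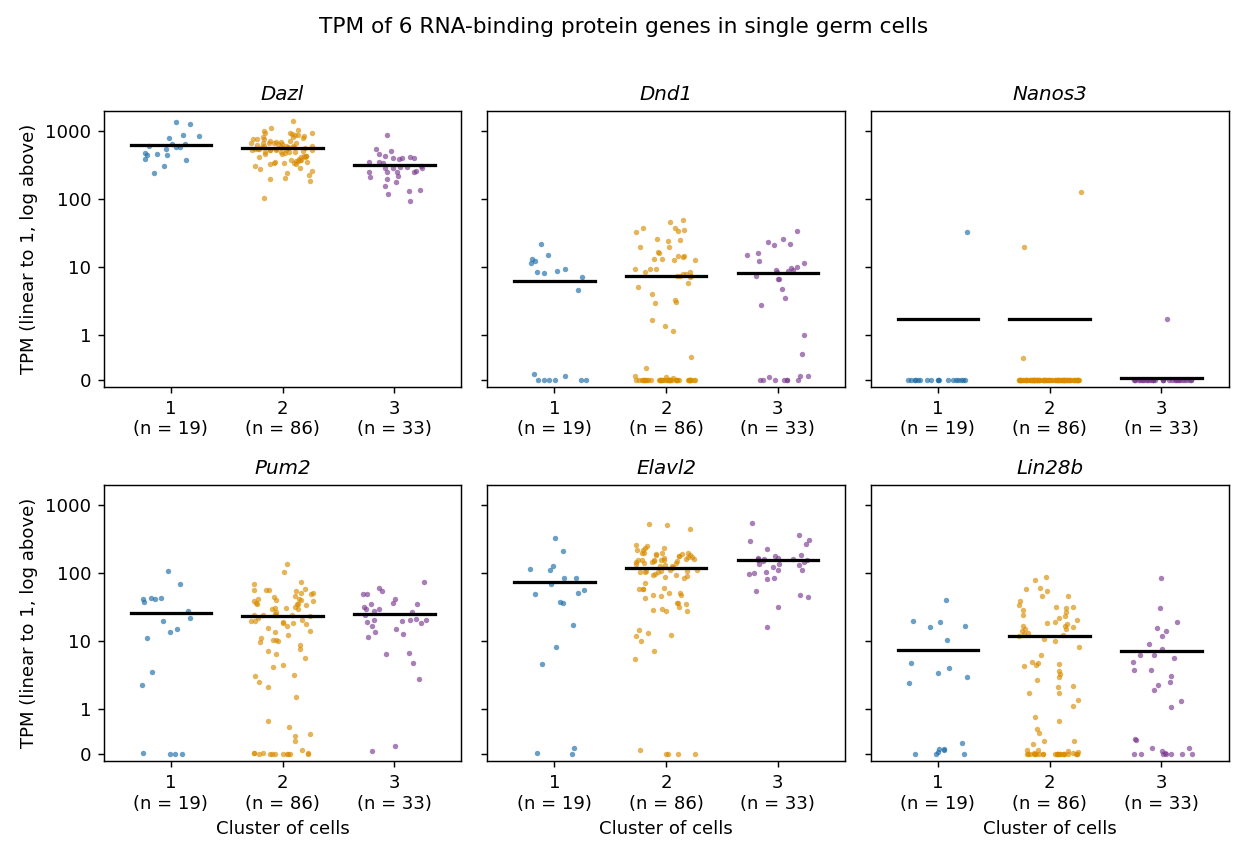
TPM of each gene in each kept cell (points), by cluster, on an axis that is linear to 1 and logarithmic above, with the mean of a cluster as a black bar. Dazl lies between 93.3 and 1403 TPM in every cell, whereas Dnd1, Pum2, Elavl2 and Lin28b have both cells above 10 TPM and cells near 0, and Nanos3 is above 0.1 TPM in 5 cells.

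The cells that lacked a gene were of like depth to those that had it. Cells with Dnd1 had a median of 9898940 reads and cells without it 9200830, and for Pum2 the medians were 9570550 and 9269050. The 7 cells without Elavl2 had a higher median than the others, at 10601600 and 9439710 reads. Cells that lacked a gene had fewer genes detected, with a median of 5294 in the 7 cells without Elavl2 and 8618 in those with it, and 6358 in the 19 cells without Pum2 and 8675 in those with it. They also had a larger share of spike-in TPM, at medians of 1.65% without Pum2 and 0.988% with it. The part of these measures in the absence of the genes was not tested. When each cell was thinned to 1000000 reads and a gene was called present from 1 read, Dnd1 was present in 55.8% of cells, Lin28b in 65.9%, Pum2 in 83.3% and Elavl2 in 94.2%.

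The spread between cells was set beside that of spike-ins of like mean level, whose input is the same in every cell (each spike-in as a share of all spike-in TPM). The coefficient of variation (SD over mean) of Dazl was 0.492, above the 0.299 to 0.438 of the 5 spike-ins with a mean within 2-fold of its own. That of Elavl2 was 0.826, within the 0.688 to 1.099 of 5 spike-ins, and that of Pum2 was 0.975, within the 0.877 to 2.10 of 5. Lin28b (1.66) and Dnd1 (1.41) lay within the spike-in range of 0.877 to 3.53. Each of these 4 genes thus varied more than some spike-ins of its level and less than others. Each also lay below the median of those spike-ins, which was 0.873 for Elavl2, 1.30 for Pum2, 2.10 for Lin28b and 2.16 for Dnd1. Nanos3 (8.56), present in 5 cells, lay above the 2.35 to 8.06 of 11 spike-ins. Within cluster 2 alone Dazl had a coefficient of 0.416, inside the range that those spike-ins had over all kept cells.

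Clusters of cells were computed from 20 feature genes, none of which is among the 6, by steps adapted from the study's methods, and they need not be the clusters of the study. They are numbered along the first component of those genes and held 19, 86 and 33 of the kept cells. Among the genes that made the clusters, given as a description, Taf7l had means of 1420, 997 and 145.86 TPM in that order, the oocyte transcription factor Sohlh1 23.9, 362 and 291, and Ybx2, which packs mRNA in germ cells, 152, 645 and 1415. A difference between cluster means is called here when the mean TPM plus 1 differed by at least 1.5-fold. With cells of 1 litter and no replicate, the calls describe these cells.

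From cluster 1 to cluster 2, Elavl2 and Lin28b were higher by this measure, which is 2 of 6 genes where 24.1% of 12449 coding genes were higher, and 0 of 6 were lower where 25.5% of coding genes were. From cluster 2 to cluster 3, none of the 6 was higher (18.7% of 12245 coding genes) and Dazl, Nanos3 and Lin28b were lower (29.2%). From cluster 1 to cluster 3, Elavl2 was higher (27.8% of 12605 coding genes) and Dazl and Nanos3 were lower (38.3%). With 6 genes, counts of 0 to 3 beside these shares are not read as a result about the group. The median log2 ratio of the 6 genes was 0.096, -0.27 and -0.048 for the 3 comparisons, beside -0.053, -0.18 and -0.22 over all coding genes.

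Dazl, which promotes translation of meiotic mRNAs, was lower in cluster 3. Its TPM ranged from 245 to 1348 with a median of 580 in cluster 1, from 105.1 to 1403 with a median of 538 in cluster 2, and from 93.3 to 871 with a median of 288 in cluster 3. The clusters overlapped, and the cells of cluster 3 lay mostly in the lower part of the range. The means were 625 ± 292, 561 ± 233 and 312 ± 151 TPM (SD over 19, 86 and 33 cells), a log2 ratio of -0.16 for cluster 2 over 1, -0.84 for 3 over 2 and -0.999 for 3 over 1. Scaled by spike-in TPM, the ratio of cluster 3 over 2 was 0.011, but the median coding gene then stood at 0.67, so that Dazl was at -0.66 relative to it. The spike-in share of TPM had a median of 1.04%, 1.22% and 0.674% in clusters 1, 2 and 3, so cluster 3 held more cellular RNA for each unit of spike-in.

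Elavl2, the Hu family protein of oocytes, went the opposite way. It ranged from 0 to 335 TPM with a median of 52.02 in cluster 1, from 0 to 527 with a median of 109.4 in cluster 2, and from 15.9 to 547 with a median of 145.1 in cluster 3, where no cell lacked it. The means were 73.8 ± 83.8, 121.3 ± 100.6 and 159 ± 105.4 TPM, log2 ratios of 0.71, 0.39 and 1.096 for cluster 2 over 1, 3 over 2 and 3 over 1. The ratio of cluster 3 over 1 was past 1.5-fold in every alternative tried, with extremes of 0.78 (cells clustered on 2000 variable genes) and 2.09 (mean log2 values compared). The steps between neighbouring clusters were less firm. Cluster 2 over 1 was 0.53, short of 1.5-fold, when scaled by spike-in TPM. The median coding gene then stood at -0.25, so that Elavl2 was at 0.78 relative to it. Cluster 3 over 2 was past 1.5-fold in CPM (0.83), per spike-in TPM (1.25) and from mean log2 values (0.86). Per spike-in TPM the median coding gene stood at 0.67, so that Elavl2 was at 0.57 relative to it, short of 1.5-fold.

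Lin28b, the let-7 antagonist, was highest on average in cluster 2, which rested on cells at its upper end. Its medians were 2.96, 2.84 and 2.25 TPM in clusters 1, 2 and 3 and its highest values 40.6, 86.8 and 84.8. The means were 7.43 ± 10.7, 11.96 ± 18.4 and 7.21 ± 15.5 TPM, with log2 ratios of 0.62 for cluster 2 over 1 and -0.66 for 3 over 2, and -0.04 for 3 over 1. Both calls were just past 1.5-fold, and without the cell at 86.8 TPM the ratios were 0.52 and -0.56, which are not. Without the cell of cluster 3 at 84.8 TPM its mean was 4.78 TPM and 3 over 2 was -1.16. The ratio of medians gave -0.043 and -0.24, and clustering on 2000 variable genes gave -0.24 and -0.18. With the like libraries counted separately the ratios were 0.69 and -0.73.

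Pum2, the Pumilio partner of NANOS proteins, and Dnd1, their cofactor, did not differ by 1.5-fold in mean TPM between any clusters, but both did on other scales. Pum2 had means of 26.4 ± 28.1, 23.2 ± 24.6 and 25.3 ± 17.7 TPM, and was present in 15 of 19, 72 of 86 and 32 of 33 cells. Its ratio of cluster 3 over 2 was 0.12 in TPM and 0.90 scaled by spike-ins, where the median coding gene stood at 0.67. Dnd1 had means of 6.29 ± 6.46, 7.37 ± 11.6 and 8.15 ± 8.93 TPM and was present in 12, 43 and 23 cells. Its ratios of cluster 3 over 2 and 3 over 1 were 0.13 and 0.33 in TPM and 1.14 and 0.97 scaled by spike-ins, which is 0.47 and 0.55 relative to the median coding gene, and 3 over 1 was 0.63 in CPM. Its medians were 7.16, 0.174 and 6.73 TPM, and in cluster 2 the gene was missing in 43 cells and present in 43. The exons of Dnd1 share 140 bases (5.80%) with those of Wdr55 on the opposite strand, and reads of the 2 genes there cannot be told apart in libraries that do not mark strand.

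Nanos3, the partner that tethers deadenylase, was present in 1 cell of cluster 1, 3 of cluster 2 and 1 of cluster 3. The cell with most had 127.6 TPM from 169 reads, and the others had 32.9 TPM from 156 reads, 19.7 from 34, 1.70 from 7 and 0.492 from 1. Its means of 1.73, 1.72 and 0.051 TPM differed past 1.5-fold between cluster 3 and the others (log2 ratios of -1.37 for cluster 3 over 2 and -1.38 for 3 over 1), and each rested on 1 to 3 cells. Without the cell at 127.6 TPM the first was -0.23, and without the cell at 32.9 TPM the second was 0.07.

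Paralogues of Dazl, Nanos3, Elavl2 and Lin28b were read in the same cells. For Boll, the other DAZ family gene of the mouse, the cluster means were 99.96, 40.5 and 10.3 TPM, log2 ratios of -1.28, -1.88 and -3.16 for cluster 2 over 1, 3 over 2 and 3 over 1. The mean of cluster 3 rested on 1 cell at 240.3 TPM, without which it was 3.12 TPM and the ratios of 3 over 2 and 3 over 1 were -3.33 and -4.61. It was present in 17 of 19, 57 of 86 and 12 of 33 cells. Dazl exceeded Boll in 100% of kept cells, and the rank correlation of the pair across cells was 0.38 (Spearman's rho over all kept cells, a description, since cells share depth and cluster). Both DAZ genes were thus lower in cluster 3, Boll by more.

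In the NANOS family Nanos1 was far more frequent than Nanos3. Nanos1 was present in 93 cells (67.4%, 58.9 to 75.1%), with a median of 7.67 TPM and a highest value of 114.2. It was present in 2 of 19 cells of cluster 1 (10.5%, 1.301 to 33.1%), 61 of 86 of cluster 2 (70.9%, 60.1 to 80.2%) and 30 of 33 of cluster 3 (90.9%, 75.7 to 98.1%). The means were 0.906, 17.6 and 18.3 TPM, log2 ratios of 3.28 for cluster 2 over 1 (3.96 without the cell of cluster 1 at 13.7 TPM) and 0.05 for 3 over 2, which understate the fold of a gene near 0 because 1 TPM is added to both means. The ratio of cluster 2 over 1 was 0.83 when cells were clustered on 2000 variable genes and at least 2.57 in CPM, per spike-in TPM and from mean log2 values. Of the 5 cells with Nanos3, 2 also had Nanos1. Nanos2, the NANOS gene of male germ cells, was above 0.1 TPM in 2 cells of cluster 3, and 49.01% of its exon bases are shared with a gene on the opposite strand.

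Elavl1, the Hu protein found in most tissues, was present in every kept cell, with means of 123.7, 94.2 and 73.5 TPM. Its log2 ratio of cluster 3 over 1 was -0.74. Scaled by spike-ins this ratio was -0.05, where the median coding gene stood at 0.42. Without the cell of cluster 1 at 403 TPM it was -0.55, short of 1.5-fold. The ratio of Elavl1 for cluster 2 over 1 (-0.39) became 0.20 when cells were clustered on 2000 variable genes. The mean of Elavl2 was thus below that of Elavl1 in cluster 1 and above it in clusters 2 and 3, and Elavl2 exceeded Elavl1 in 86 cells (62.3%). Elavl4, a neuronal Hu gene, was present in 8 of 19 cells of cluster 1, 7 of 86 of cluster 2 and 5 of 33 of cluster 3, with means of 15.5, 1.23 and 2.61 TPM. Single cells carried the last 2 of these means, which were 0.520 TPM in cluster 2 without its cell at 61.5 TPM and 0.174 TPM in cluster 3 without its cell at 80.4 TPM, so no order of clusters 2 and 3 is read from them. Elavl3 stayed at a mean of at most 0.295 TPM, which was 0.055 TPM without 1 cell.

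Lin28a, the second mouse LIN28 gene, was more frequent in each later cluster, while the share of cells with Lin28b was 78.9%, 67.4% and 72.7%. It was present in 0 of 19 cells of cluster 1, which allows a share of up to 15.8% as 3 cells of the 19, or 17.6% as the upper bound of the exact interval, in 21 of 86 of cluster 2 (24.4%, 15.8 to 34.9%) and in 26 of 33 of cluster 3 (78.8%, 61.1 to 91.02%). The means were 0, 1.73 and 5.04 TPM, log2 ratios of 1.45 for cluster 2 over 1 and 1.15 for 3 over 2. With cells clustered on 2000 variable genes these ratios were 0.45, short of 1.5-fold, and 0.98. Lin28a correlated with the number of genes detected at 0.43, and the median of that number was 8495, 8205.5 and 9682 in clusters 1, 2 and 3, whose part in the result was not tested. Both genes were present in 33 cells, Lin28b alone in 64, Lin28a alone in 14 and neither in 27. Across cells their rank correlation was close to 0 (rho of 0.020). The exons of Lin28a share 234 bases (5.86%) with those of a gene on the opposite strand.

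**Figure D2:**
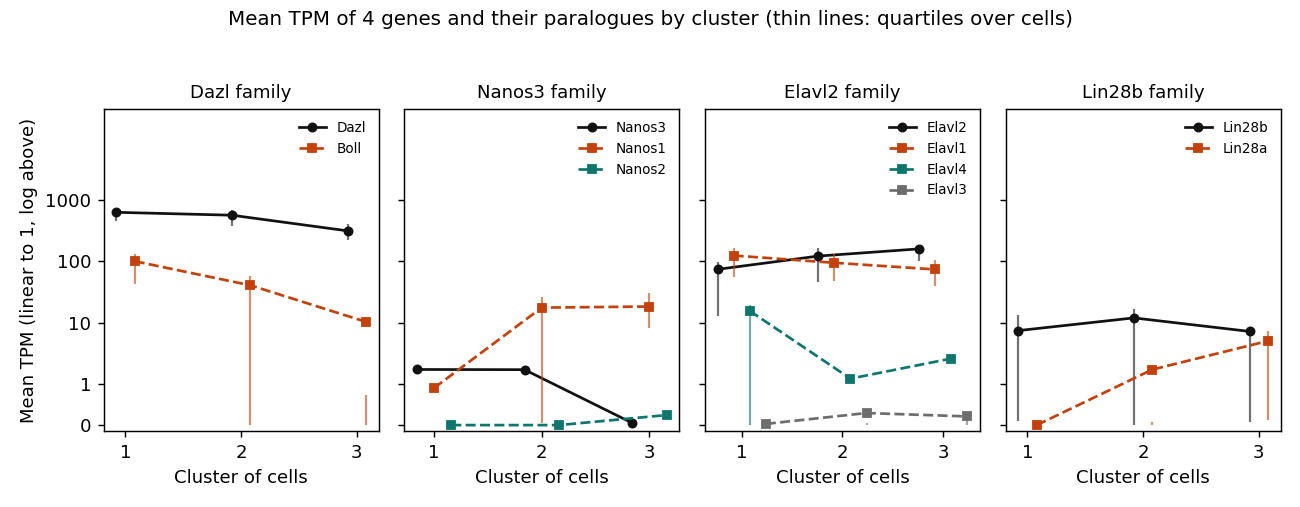
Mean TPM in clusters 1, 2 and 3 of Dazl, Nanos3, Elavl2 and Lin28b (black circles) and their paralogues (squares), with thin lines from the lower to the upper quartile over cells, on an axis that is linear to 1 and logarithmic above. Dazl and Boll both descend, Nanos1 goes from 0.906 to 17.6 TPM between clusters 1 and 2 while Nanos3 stays below 2 TPM, and Elavl2 passes Elavl1 between clusters 1 and 2.

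**Figure D3:**
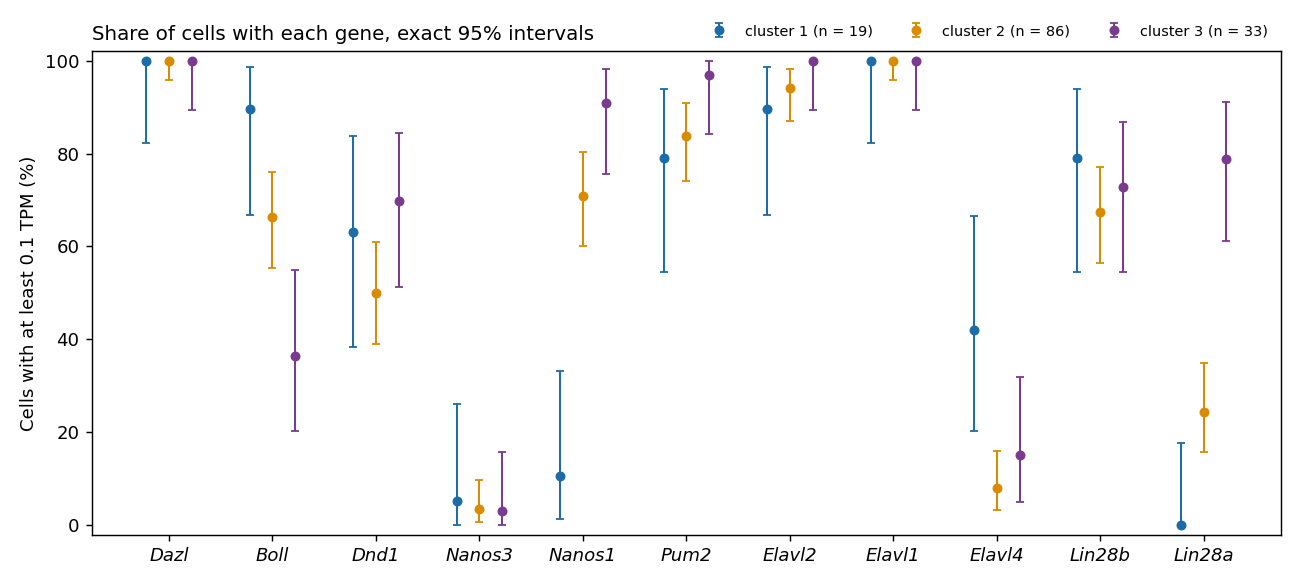
Share of the cells of each cluster with at least 0.1 TPM of a gene, in percent, with exact 95% intervals that cover counting error only. Nanos1 and Lin28a lie at 10.5% and 0% in cluster 1 and at 90.9% and 78.8% in cluster 3, Boll goes from 89.5% to 36.4%, and for Dnd1 and for Lin28b the intervals of the clusters overlap.

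Cells were ordered on the first component of the feature genes and cut into 5 bins of 28 or 27 cells. The lowest mean of Dazl was in the last bin. Its mean was 604, 590.0, 568 and 493 TPM in bins 1 to 4 and 286 in bin 5. Elavl2 had means of 94.3, 95.04 and 91.6 TPM in the first 3 bins and 183 and 158 in the last 2. Lin28b had means of 9.70, 11.8, 13.3 and 12.1 TPM in bins 1 to 4 and 3.95 in bin 5, but its medians were 3.13, 4.63, 1.43, 0.065 and 1.33 TPM, and it was present in 78.6, 85.7, 67.9, 48.1 and 70.4% of cells. By mean its lowest bin was the last, and by median and share of cells it was bin 4. Nanos1 went from 6.36 TPM in bin 1 to 27.01 in bin 4 and 17.04 in bin 5, and the share of cells with Lin28a from 7.14% in bin 1 to 77.8% in bin 5. Boll, at 91.8 TPM in bin 1 and 2.62 in bin 5 (1.24 without the cell at 38.6 TPM), was lowest in the bin where Lin28a was most frequent. Pum2 had means between 19.4 and 29.1 TPM. Dnd1 had means between 5.67 and 8.89 TPM, while its medians were 7.23, 0, 0.064, 1.37 and 8.52 TPM in bins 1 to 5 and its shares of cells 60.7, 46.4, 46.4, 51.9 and 77.8%, highest in the first and last bins.

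The 6 genes showed little common variation from cell to cell. Over the kept cells the rank correlations of the 15 pairs lay between -0.11 and 0.13, and within the 86 cells of cluster 2 between -0.19 and 0.13. In CPM over the kept cells they lay between -0.18 (Dazl with Elavl2) and 0.26 (Pum2 with Elavl2). Scaled by spike-in TPM, which all genes of a cell share as divisor, Dazl correlated with Pum2 at 0.43, with Elavl2 at 0.35 and with Lin28b at 0.35, and Pum2 with Elavl2 at 0.47. Dazl correlated with Ddx4 at 0.45, with the order of cells at -0.45 and with the mitochondrial share of reads at -0.44. Pum2 and Elavl2 correlated with the number of genes detected at 0.35 and 0.34, and with the spike-in share at -0.34 and -0.16.

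Among 8377 coding genes present in at least 50% of cells, the gene most like Dazl was Hnrnpk, an RNA-binding protein of the nucleus, with a rho of 0.59 over the kept cells and 0.54 within cluster 2. Hspa8, a chaperone of the heat shock family (0.57), followed, and both had lower means in each later cluster. For Dazl 7.94% of the 8377 genes had a rho above 0.3, against a median of 0.05. The other genes had fewer such partners. Elavl2 was most like Camsap3 (0.44), which binds microtubule minus ends, Olah (0.42) and Wdtc1 (0.41), and all of these had higher means in each later cluster, Olah from 1.83 to 33.5 and 122.2 TPM. Pum2 was most like the phosphatase subunit Ppp1cc (0.48), Frmd4a (0.40) and Mepce (0.40), Lin28b like Lrrc8d (0.42), Thap12 (0.38) and Pole (0.38), and Dnd1 like Mreg (0.38), Ankrd13a (0.37) and Rpl36a (0.37). For Nanos3, with 5 cells, the highest were Traf7 (0.27), Slc12a3 (0.27) and Apobec3 (0.26).

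The deposited TPM and estimated reads of a gene differ by the effective length of its transcripts, so that their quotient, with the spike-ins as the standard of a cell, gives the mean effective length of the transcripts that were quantified. It was computed in cells with at least 50 reads of a gene, from the first library of a pair of like libraries. The effective length is close to the transcript length less a fragment, and with the correction for sequence bias it can also exceed the length: for Dazl, which had 1 length of 2942 bases in every cell, it ranged from 2504 to 3105 bases with a median of 2687. None of the 6 Dazl transcripts of GENCODE M21, the closest of 2976 and 2820 bases, has this length, so the authors' annotation is not M21 throughout and the comparison with its transcript lengths is approximate.

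Pum2 was quantified on transcripts of different length in different cells. The median over the 14, 64 and 31 cells of clusters 1, 2 and 3 was 4325 bases and the range 205 to 6018. Cells were most frequent between 5500 and 6000 bases, with 42, and between 3000 and 3500, with 23. Others lay between these ranges, with 10 cells at 3500 to 4000 bases, 12 at 4000 to 4500, 4 at 4500 to 5000 and 3 at 5000 to 5500. The cell at 205 bases had the highest TPM of the gene, 136.01, from 208 reads. The median over the kept cells was 706.5 reads, so this highest TPM came with fewer reads than the median cell had. The longest annotated coding transcripts of Pum2 have 6311, 6226, 5874 and 4984 bases, and the next 3587, 3560 and 3295. Of the 16 transcripts, 6 hold the first of the Pumilio elements shown above and 5 hold the second, and the longest transcript without either has 3560 bases. In 64 of these cells (58.7%) the implied length was over 3916 bases, which is 1.1 times that length, so that transcripts with the element made up part of the quantified Pum2 RNA there. The counts were 7 of 14, 36 of 64 and 21 of 31 cells in clusters 1, 2 and 3.

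Lin28b also differed in length between cells. The median over 73 cells was 3568 bases and the range 709 to 5300. There were 17 cells between 4500 and 5000 bases and 12 between 5000 and 5500, near the coding transcript of 5402 bases. Another 17 lay between 2500 and 3000, near a processed transcript of 2902 bases. Others lay between these ranges, with 7 cells at 3000 to 3500 bases, 4 at 3500 to 4000 and 4 at 4000 to 4500. All 4 let-7 matches and both Pumilio elements lie in the transcript of 5402 bases and in neither of the other 2. The implied length was over 3192 bases, 1.1 times that of the longer of these, in 43 of 73 cells (58.9%), which were 6 of 10, 29 of 45 and 8 of 18 cells in clusters 1, 2 and 3. Lengths well below 5402 bases arise where the authors' quantification assigned reads to the shorter transcripts, which are annotated without a reading frame, and this assignment was not tested with reads.

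Elavl2 gave a median of 2424 bases over the 16, 81 and 33 cells of the 3 clusters and a range of 230 to 3789, spread over its 16 annotated transcripts. The 3 Pumilio elements lie in 6 of these, of 3671 to 4191 bases, and the longest transcript without them has 3195 bases. Since an effective length is mostly below the transcript length, a cell on the shorter of the 6 can give a value close to that of the 3195-base transcript, and no share of cells with the elements is read for Elavl2. The median was 2378, 2262 and 2967 bases in clusters 1, 2 and 3. Dnd1 kept to 1 transcript in most cells, with a median of 1160 bases over 64 cells, 59 of them between 1000 and 1500, beside its coding transcript of 1451 bases and retained-intron transcripts of 1804 and 2057. The 2 cells with at least 50 reads of Nanos3 gave 300.0 and 512 bases, beside coding transcripts of 730 and 692 bases and a processed transcript of 434.

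**Figure D4:**
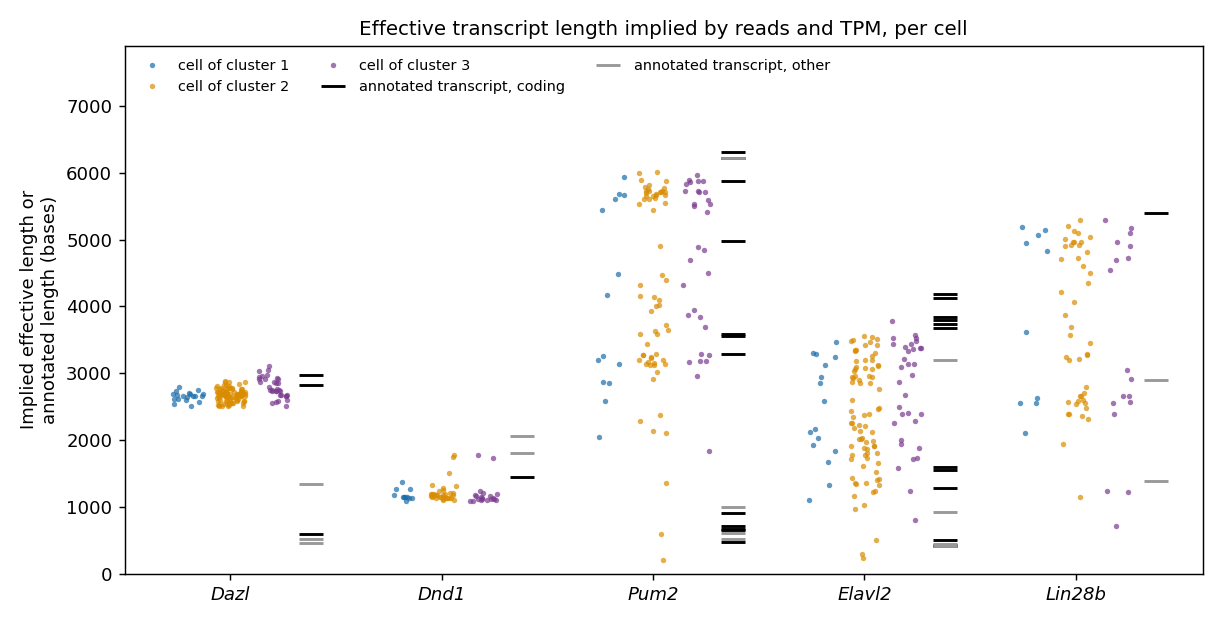
Effective length in bases implied by reads and TPM in each cell with at least 50 reads of the gene (points, by cluster), beside the lengths of the transcripts annotated in GENCODE M21 (bars, black for coding). Dazl and Dnd1 form narrow bands, whereas Pum2 and Lin28b gather in an upper and a lower range with cells between, and Elavl2 is spread from 230 to 3789 bases.

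The partners and reported targets of these proteins showed no single direction. Of 11 measured CCR4-NOT genes, the deadenylase that NANOS proteins recruit, 2 were higher and 5 lower in cluster 3 than in cluster 1, with a median log2 ratio of -0.56 beside -0.22 for all coding genes. The catalytic subunit gene Cnot6l (1.07) and the ubiquitin ligase Cnot4 (0.63) were higher, and the subunits Cnot2 (-0.76) and Cnot11 (-0.70) lower. Of 14 genes of P-bodies and the cap complex, where repressed mRNA is held, 5 were higher and 3 lower, with a median of 0.08. Limd1 (2.76) and Lsm14b (1.64), the latter a component of oocyte ribonucleoprotein, were higher, and the decapping factors Edc3 (-1.43) and Edc4 (-0.99) lower.

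Of 7 mRNAs reported as DAZL targets, 1 was higher, 3 were lower and 3 were within 1.5-fold between clusters 1 and 3, with a median of -0.32. Tdrd1, a Tudor protein of the piRNA pathway, was higher at 15.9, 83.5 and 90.9 TPM. Tex19.1, which holds retrotransposons in check, was lower at 216, 109.03 and 28.6 TPM, and Ddx4, which also chose the cells, at 318, 221 and 125 TPM. An mRNA level says nothing of the translation that DAZL acts on.

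Of 14 measured genes of the LIN28 and let-7 axis, 3 were higher and 6 lower in cluster 3 than in cluster 1, with a median of -0.19. Trim71, the mouse LIN-41, had means of 3.63, 29.9 and 44.3 TPM, a log2 ratio of 3.29, and Hmga2 had 0.705, 3.29 and 6.83 TPM (2.20). Zcchc11, the uridylyl transferase that LIN28 recruits to let-7 precursors, was lower at 62.8, 41.6 and 23.02 TPM (-1.41), as was the RNA-binding protein gene Igf2bp3 at 100.9, 89.4 and 39.3 TPM (-1.34).

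Of 25 other genes of RNA-binding proteins, 5 were higher, 9 lower and 11 within 1.5-fold, with a median of -0.30. Zfp36l2, which binds AU-rich sequence and destabilises mRNA, had means of 7.29, 21.7 and 35.3 TPM (2.13) and Rbfox2, a splicing factor, 12.7, 25.1 and 27.2 TPM (1.04). Fmr1, the fragile X gene and a repressor of translation, had 194, 71.3 and 35.6 TPM (-2.41) and Caprin1, of stress granules, 130, 89.3 and 47.7 TPM (-1.42). All of these lists were read beside shares of 27.8% higher and 38.3% lower over all coding genes in the same comparison.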

How the data were processed

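The authors quantified each single-cell library with Salmon against mm10 with spike-in sequences added. The deposited files give, per gene symbol, TPM, which share 1 total per cell with spike-ins included, and estimated counts of reads, which are not normalized. The deposited lengths of genes with several transcripts lay below the shortest annotated transcript in part of the cells and were not used. In their place the estimated count was divided by the TPM and by the same quotient of spike-ins, which agree within a cell to 9.38e-06.

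The 6 genes and all lists were chosen with earlier results of these data known. Coding genes were found by matching symbols to GENCODE M21 (28006 matched), RefSeq symbols (35) and RefSeq synonyms (269). Another 24295 symbols had no match. At 0 TPM the deposited length equals the mean over GENCODE M21 transcripts for 90.8% of coding genes, Dnd1, Nanos3, Pum2, Elavl2 and Lin28b among them. The annotation release is not given in the sources used here.

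Libraries whose log2(TPM + 1) correlated above 0.95 over coding genes (7 pairs) were averaged and counted as 1 cell, a step chosen after seeing the data. All 146 libraries were clustered in Seurat 5.3.0 (R 4.3.3) with NormalizeData, ScaleData and 10 principal components of 20 feature genes with 20 neighbours. The resolution was raised from 0.1 by 0.05 until 3 clusters formed. Python 3.11.15 with NumPy 2.4.6, pandas 2.3.3 and SciPy 1.17.1 gave the other values. Ratios are log2 of cluster means of TPM, each plus 1. A gene counts as present from 0.1 TPM, with Clopper-Pearson 95% intervals. Spearman's rho is given without a p-value. Coding genes entered a ratio if either cluster had a mean of 1 TPM or more, and feature genes were left out. Doublets were not searched for, since cells were picked singly.

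Named genes are the 6, their paralogues, the 3 coding genes of highest rho for each of the 6, per list up to 2 higher and 2 lower genes of greatest ratio between clusters 1 and 3 past 1.5-fold, and cell type markers. Of the genes this rule names, 2 are not reported here. Taf7l, Sohlh1 and Ybx2 were picked after their values were seen. Alternatives were other clusters, cell filters, scalings, pseudocounts, averages, detection limits, thinning and leaving out each cell, and, added after seeing the data, counting the like libraries separately or leaving them out of the clustering.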

Additional observations from a re-analysis of the deposited data

Results flagged for a closer look

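The cell left out for 0 TPM of Ddx4 held the highest levels of Nanos3 and Dnd1 of all cells. It had 1408460 reads, the fewest of any cell. Nanos3 had 85 estimated reads there (232 TPM) and Dnd1 had 263 (96.7 TPM), both above the limit of 3 reads that a count of 0 allows, whereas the highest kept cells had 127.6 and 49.9 TPM. Dazl had 1 read in it (0.221 TPM), and Pum2, Elavl2 and Lin28b had none. The implied effective length of Nanos3 was 230 bases, below that of each kept cell with the gene. Of the 8 germ cell markers 6 were at 0 in this cell, among them Ddx4, whose 0 was the reason for leaving the cell out. The 9 pregranulosa markers summed to 7.21 TPM and the 8 stroma markers to 249 TPM. This cell entered the clustering, in cluster 1, but none of the means above. With it included the Dnd1 ratio of cluster 2 over cluster 1 was -0.50 in place of 0.20.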

How the results depend on the processing

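Of 252 recomputed ratios between clusters 199 kept their direction and their side of 1.5-fold or stayed within the spread, as did 54 of 60 recomputed rank correlations. Counting the 7 pairs of like libraries separately, or leaving the later library of each out before clustering (both chosen after seeing the data), changed none of these calls, nor a share beyond its interval. Log2 ratios that moved follow, for cluster 2 over 1 (2/1), 3 over 2 (3/2) and 3 over 1 (3/1). The causes were not tested. Scaled by spike-in TPM, Dazl gave 0.011 (3/2, reversed) and -0.34 (3/1), Dnd1 1.14 (3/2) and 0.97 (3/1), Nanos3 -1.04 (2/1), -3.99 (3/2) and -5.03 (3/1), Pum2 0.90 (3/2) and 0.75 (3/1), Elavl2 0.53 (2/1), 1.25 (3/2) and 1.78 (3/1), and Lin28b -0.22 (3/2). This scaling moved the median coding gene to -0.25, 0.67 and 0.42 in the 3 comparisons. In CPM, Dnd1 gave 0.63 (3/1), Nanos3 -0.51 (3/2) and -0.76 (3/1), and Elavl2 0.83 (3/2) and 1.69 (3/1). With the low Ddx4 cell included, Dnd1 gave -0.50 (2/1) and -0.37 (3/1), and Nanos3 -2.39 (2/1) and -3.76 (3/1). With clusters from 2000 variable genes, where 41 cells of cluster 2 joined those of cluster 1, Nanos3 gave -0.91 (2/1), 2.003 (3/2) and 1.09 (3/1), and Lin28b -0.24 (2/1) and -0.18 (3/2), so that Nanos3 (3/2 and 3/1) and Lin28b (2/1) reversed. As a difference of mean log2 values, Nanos3 gave -0.096 (3/2) and -0.22 (3/1), Pum2 0.72 (3/2) and 0.61 (3/1), Elavl2 0.86 (3/2) and 2.09 (3/1), and Lin28b 0.28 (2/1) and -0.43 (3/2). As a ratio of medians, Dnd1 gave -2.80 (2/1) and 2.72 (3/2), Nanos3 0 (3/2 and 3/1), and Lin28b -0.043 (2/1, reversed) and -0.24 (3/2). With a pseudocount of 0.1, Nanos3 gave -3.59 (3/2) and -3.60 (3/1). With the quality limits read from TPM, Nanos3 gave -1.14 (2/1) and -0.24 (3/2), and Lin28b 0.54 (2/1) and -0.55 (3/2). Leaving out each cell in turn, Nanos3 ranged from -1.14 to 1.44 (2/1), from -1.44 to -0.23 (3/2) and from -1.45 to 0.072 (3/1), each extreme set by 1 of its 5 cells, and Lin28b from 0.52 to 0.98 (2/1) and from -1.16 to -0.56 (3/2). At a limit of 1 TPM Lin28b was present in 58.7% of cells. Means of the paralogues were also read without the highest cell of a cluster or bin, a choice made after seeing the data. No paired analysis was possible because all cells form 1 group and the labels pair none of them. Thinning to 1000000 reads changed no share of cells with any of the 6 genes beyond its interval.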
